A study of Homo sapiens with 7 samples.

Results

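Aminoacyl-tRNA synthetases attach each amino acid to its tRNA, the step that supplies ribosomes with their substrates. The 38 genes described here, of 19978 in the deposited table, were listed by name: 17 cytosolic synthetase genes, 2 genes whose products serve both compartments (GARS1 for glycine and KARS1 for lysine), 16 mitochondrial synthetase genes and 3 scaffold proteins of the multi-synthetase complex (AIMP1, AIMP2 and EEF1E1). The 2 genes that serve both compartments are counted with the cytosolic ones, which gives 19. The rule that picks them uses their names and no measured value, and all 38 genes passed the filter on low counts.

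Poly(A)-selected RNA was sequenced from HEK-293, an established human embryonic kidney line, after 48 h in 3 media that all contained the vehicle DMSO. The control group (2 samples) was kept at pH 7.4, the acidosis group (3 samples) at pH 6.6, and the SRPIN340 group (2 samples) at pH 7.4 with 10 µM of SRPIN340, an inhibitor of the kinases that phosphorylate SR-rich splicing factors. No gene was altered in any group. The samples are bulk cultures of 1 transformed line, so fewer cells of a kind and less RNA per cell cannot be told apart. The p-values measure the spread between these 7 samples.

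In human cells most amino acids have one nuclear synthetase gene for the cytosol, with the suffix 1, and another for mitochondria, with the suffix 2. Several cytosolic enzymes are held together in the multi-synthetase complex, and the others lie outside it. Uncharged tRNA activates the kinase GCN2, which phosphorylates eIF2α and raises translation of the transcription factor ATF4. Many cytosolic synthetase genes are textbook ATF4 targets, together with genes of amino acid synthesis and uptake, while the mitochondrial synthetase genes are not usually counted among them.

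The DNA element that ATF4 binds together with a C/EBP partner is shown first, because most of the genes that hold it here are cytosolic. The window searched ran from 250 bases before to 50 bases after each RefSeq start (GRCh38.p14), and 33 of the 38 genes were matched. LARS1, VARS1, YARS1, AARS2 and VARS2 were not. The letters TGATGNAA, on either strand, were found in 7 of 16 cytosolic genes, in 1 of 14 mitochondrial genes and in 0 of 3 scaffold genes, against 3.62% of 35116 promoters and 2.82% of the 11825 tested genes with a promoter in the table. Each match is printed 5′ to 3′ on the strand of its gene, with the matched letters in capitals. These read TTNCATCA where the element lies on the opposite strand.
AARS1: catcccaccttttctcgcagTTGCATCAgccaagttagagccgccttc
GARS1: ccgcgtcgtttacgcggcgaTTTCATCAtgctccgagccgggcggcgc
MARS1: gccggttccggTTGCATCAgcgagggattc
CARS1: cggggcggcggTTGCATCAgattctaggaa
IARS1: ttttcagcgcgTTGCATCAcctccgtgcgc
TARS1: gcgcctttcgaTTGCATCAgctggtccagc
NARS1: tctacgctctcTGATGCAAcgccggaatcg
YARS2: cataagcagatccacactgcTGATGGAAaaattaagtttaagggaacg

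The AARS1 window is chr16:70289666-70289713 on the minus strand, with the element 187 to 180 bases before the start. The GARS1 window is chr7:30594825-30594872 on the plus strand, with the element 33 to 26 bases before the start. In MARS1 (chr12:57488053-57488082, plus) and CARS1 (chr11:3057407-3057436, minus) the element spans the start itself. In IARS1 (chr9:92293692-92293721, minus) it ends 6 bases before the start. In TARS1 (chr5:33440956-33440985, plus) and NARS1 (chr18:57621804-57621833, minus) it lies in the first transcribed bases. The YARS2 element, the single mitochondrial match (chr12:32756067-32756114, minus), lies 197 to 190 bases before the start. The core TTGCATCA or its reverse complement TGATGCAA was present in AARS1, MARS1, CARS1, IARS1, TARS1 and NARS1, whereas GARS1 and YARS2 had other letters at the free position.

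A letter match is a description and not a bound site, and the genes that carry it did not move together in acidosis. The log2 fold changes of the cytosolic carriers against control ran from 1.25 for MARS1, 1.16 for GARS1 and 0.70 for AARS1, over 0.04 for CARS1, -0.08 for IARS1 and -0.16 for TARS1, to -1.15 for NARS1. Their median was 0.042, against -0.479 for the matched cytosolic genes without the element, which leaves out YARS1, VARS1 and LARS1. The E-box CACGTG, read by MYC and related factors, was found in MARS2, AIMP2, IARS1, CARS2 and EARS2, which is 5 of 33 against 12.3% of tested genes. The core of the NRF1 motif, GCGCATGC, was found in MARS2 and YARS2, against 5.86% of tested genes. NRF1 is a regulator of nuclear genes for mitochondrial proteins.

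Library totals lay between 13615816 and 24110460 counts, and the shallowest libraries were 2 of the 3 acidosis samples. Values per sample are CPM, counts relative to library totals that were scaled by TMM to align the typical gene between samples, and a call means an edgeR adjusted p under 0.05 over all 14863 tested genes with an absolute log2 fold change over 1. Scaling by total count alone would move the all-gene median in acidosis from -0.0518 to -0.626 on the log2 scale, so every change below is relative to the typical gene. The epithelial and kidney precursor markers were above 1 CPM in every library for 6 of 6 genes. Their summed level was 1495 to 1532 CPM in control and 3508 to 3524 CPM in acidosis, most of it VIM (842.5 to 891.6 CPM and 2675 to 2745 CPM), while PAX2 was at 6.49 to 7.06 and 1.19 to 2.48 CPM and KRT18 at 119.2 to 124.9 and 99.6 to 103.7 CPM. Fibroblast markers (2 of 4 above 1 CPM in every library) summed to 38.8 CPM in each control sample and to 80.5 to 92.7 CPM in acidosis. Leukocyte markers (2 of 4 at 0 everywhere) did not exceed 16.5 CPM, endothelial markers 2.32 CPM and hepatocyte markers 0.627 CPM. The part of these shifts in the results was not tested.

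Acidosis split the synthetase family. Against control, 5 genes were called higher: YARS1, VARS1, MARS1, SARS1 and GARS1. The first 4 are cytosolic, and GARS1 serves both compartments. Called lower were 7 genes, of which RARS1, FARSA and NARS1 are cytosolic and PARS2, AARS2, IARS2 and FARS2 mitochondrial. Among all tested genes 14.4% were called higher and 19.1% lower, and 5 and 7 of 38 are near these shares. Without the fold limit, 12 members passed as higher, 17 as lower and 9 did not pass, where 32.5% of all genes were higher and 34.2% lower. The samples of the groups did not overlap for 30 of the 38 members, against 76.5% of all genes. The median of the 38 log2 fold changes was -0.10. The family as a whole thus moved about as often as other genes did, and the description below is of which members moved which way.

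**Figure D1:**
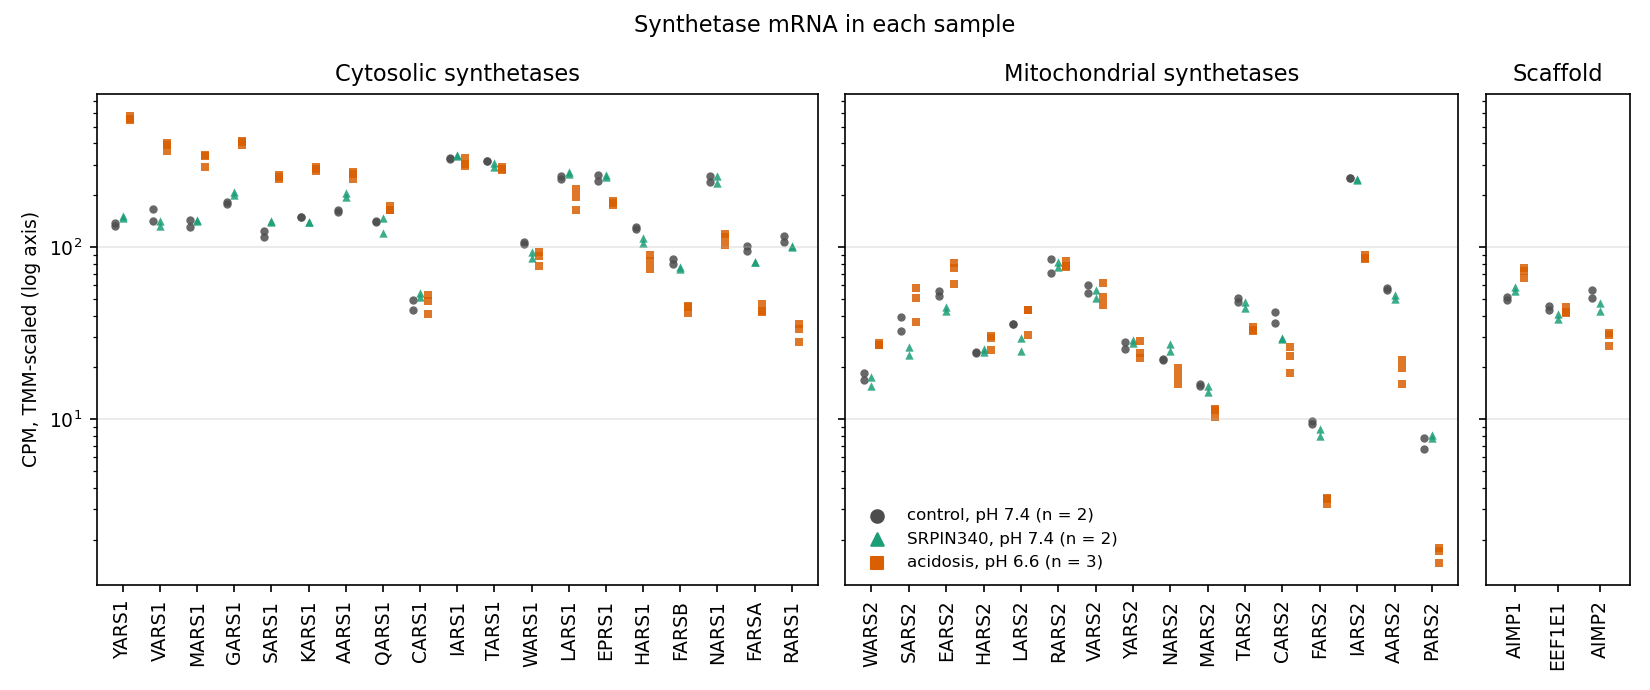
Level of each of the 38 mRNAs in each sample, as TMM-scaled CPM on a log axis, with control as circles, SRPIN340 as triangles and acidosis as squares. Genes are ordered within each class by their change in acidosis. The YARS1 samples in acidosis sit at 548 to 577 CPM, above all samples at pH 7.4, and the PARS2 samples in acidosis at 1.47 to 1.78 CPM, below all of them.

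YARS1, the tyrosyl-tRNA synthetase, rose most. Its level was 137.7 and 132.0 CPM in the control samples and 548.2, 577.4 and 551.1 CPM in acidosis, a log2 fold change of 2.05 ± 0.06 (SE, adjusted p = 1.2e-08). The groups lay far apart, and YARS1 was the only member called higher that stayed past the fold limit with total-count scaling (1.48). YARS1 lies at chr1:32775237-32818031 on the minus strand (GRCh38, here and for the genes that follow). It shares 1265 bases with S100PBP on the opposite strand. Shared bases, here and below, are of whole gene bodies with introns, and not every overlap is listed.

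VARS1, the valyl-tRNA synthetase, was at 142.1 and 165.5 CPM in control and at 401.4, 362.7 and 393.4 CPM in acidosis. Its log2 fold change was 1.33 ± 0.09 (adjusted p = 8.0e-07), and every acidosis sample lay above both controls. The gene is at chr6:31777518-31795752. MARS1, the methionyl-tRNA synthetase, charges initiator and elongator tRNA and sits in the multi-synthetase complex. It was at 130.2 and 143.0 CPM in control and at 342.5, 290.0 and 339.5 CPM in acidosis, a log2 fold change of 1.25 ± 0.09 (adjusted p = 1.4e-06). It was the one synthetase of the complex called higher against control. MARS1 (chr12:57475445-57517569) shares 982 bases with DDIT3 on the opposite strand, and the strand setting of the counting is not given in the sources used here.

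GARS1, which encodes the glycyl-tRNA synthetase of both compartments, was at 178.2 and 181.7 CPM in control and at 390.9, 411.5 and 407.0 CPM in acidosis. The log2 fold change was 1.16 ± 0.06 (adjusted p = 2.2e-07). The gene lies at chr7:30580533-30634033. SARS1, which charges serine and also the selenocysteine tRNA, was at 114.9 and 123.6 CPM in control and at 261.2, 249.2 and 254.4 CPM in acidosis, a log2 fold change of 1.10 ± 0.07 (adjusted p = 5.3e-07). For both genes the samples of a group were close together and the groups apart. SARS1 lies at chr1:109213918-109238182. With total-count scaling the changes of VARS1, MARS1, GARS1 and SARS1 kept their direction at 0.75, 0.67, 0.59 and 0.52, under the fold limit.

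KARS1, the lysyl-tRNA synthetase of both compartments, stopped just short of the fold limit against control. It was at 148.6 and 148.7 CPM in control and at 276.6, 282.5 and 290.2 CPM in acidosis, with a log2 fold change of 0.93 ± 0.06 (adjusted p = 9.0e-07). AARS1 (alanine) was higher by 0.70 ± 0.07 (adjusted p = 1.3e-05), and QARS1 (glutamine) by 0.25 ± 0.09 (adjusted p = 0.035), which became -0.33 with total-count scaling. The pass of QARS1 was lost with the replicate block (adjusted p = 0.10), without the filter (0.061) and without either control sample or acidosis replicate 1 or 3 (0.056 to 0.13). Those were the 8 cytosolic genes that passed as higher.

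RARS1, the arginyl-tRNA synthetase, fell most among the cytosolic genes. It was at 116.2 and 107.3 CPM in control and at 27.97, 35.71 and 33.62 CPM in acidosis, a log2 fold change of -1.79 ± 0.11 (adjusted p = 4.3e-07). All acidosis samples lay well below both control samples. RARS1 (chr5:168486451-168519301) is, like MARS1, part of the multi-synthetase complex.

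FARSA and FARSB encode the α and β subunits of the cytosolic phenylalanyl-tRNA synthetase, the family's heterotetramer. FARSA was at 95.21 and 101.9 CPM in control and at 46.97, 41.87 and 42.22 CPM in acidosis, a log2 fold change of -1.17 ± 0.09 (adjusted p = 1.7e-06). FARSB was lower by a similar amount, at -0.91 ± 0.08 (adjusted p = 8.0e-06), within the fold limit. Both subunits were thus lower in every acidosis sample than in any control sample. FARSA lies at chr19:12922479-12934037.

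NARS1, the asparaginyl-tRNA synthetase, was at 258.2 and 237.6 CPM in control and at 113.6, 118.4 and 102.2 CPM in acidosis. The log2 fold change was -1.15 ± 0.08 (adjusted p = 1.5e-06), and the groups did not overlap. NARS1 (chr18:57600656-57622213) carries the ATF4 element printed above and is commonly counted as an ATF4 target. It was the 1 gene with that annotation called lower.

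The smallest changes among the cytosolic genes were those of CARS1 and IARS1. CARS1 (cysteine) was at 43.19 and 48.97 CPM in control and at 52.97, 40.67 and 48.32 CPM in acidosis (0.04 ± 0.12, adjusted p = 0.78; -0.53 with total-count scaling). IARS1 (isoleucine) was at 329.2 and 324.9 CPM in control and at 296.0, 329.6 and 304.6 CPM in acidosis (-0.08 ± 0.06, adjusted p = 0.31). Groups overlapped for both, and they were the 2 cytosolic genes that did not pass. HARS1 (histidine), EPRS1 (glutamate and proline), LARS1 (leucine), WARS1 (tryptophan) and TARS1 (threonine) passed as lower within the fold limit, between -0.64 for HARS1 and -0.16 for TARS1. The pass of TARS1 was lost in DESeq2 (adjusted p = 0.081), with RLE size factors (0.083), with the replicate block (0.12) and without any one sample other than acidosis replicate 2 (0.053 to 0.10). That of WARS1 was lost without either control sample (0.095 and 0.054) or acidosis replicate 2 (0.052).

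**Figure D2:**
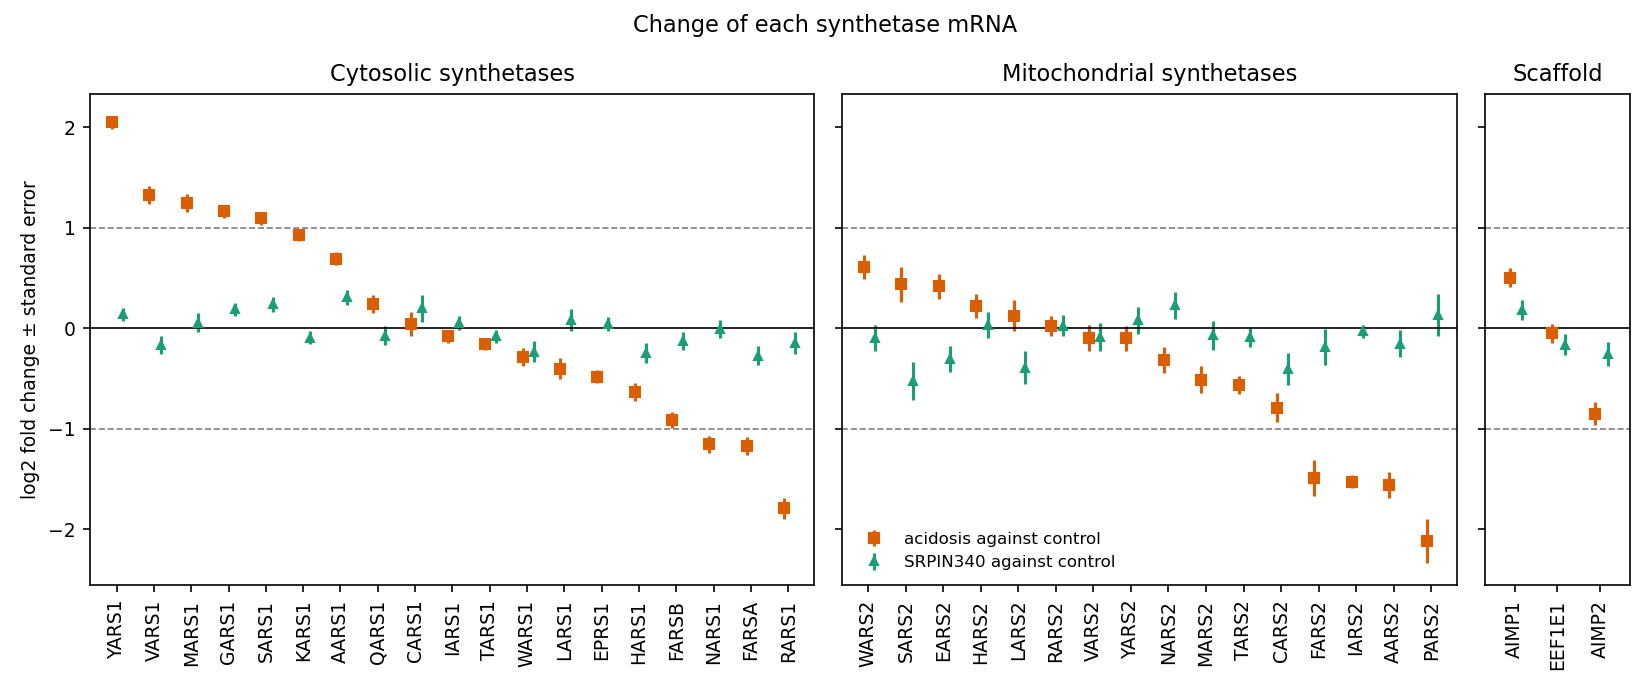
Log2 fold change with its standard error for each of the 38 genes, acidosis against control as squares (3 and 2 samples) and SRPIN340 against control as triangles (2 and 2 samples). Dashed lines mark the fold limit of 1. In acidosis the cytosolic genes run from 2.05 (YARS1) to -1.79 (RARS1) and the mitochondrial ones from 0.61 (WARS2) to -2.12 (PARS2), while all SRPIN340 values lie between -0.53 and 0.31.

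Of the 19 cytosolic genes, 8 passed as higher, 9 as lower and 2 did not pass, with a median of -0.08. By annotation, the 13 that are commonly counted as ATF4 targets held all 5 of the genes called higher and 1 of those called lower (median 0.04), and the other 6 held 0 and 2 (median -0.77). Among the latter, KARS1 and QARS1 passed as higher and HARS1, FARSB, FARSA and RARS1 as lower. The 7 synthetases of the multi-synthetase complex held 1 gene called higher (MARS1) and 1 called lower (RARS1), and the 12 outside it 4 and 2. By catalytic fold, the 9 class I genes had 3 called higher and 1 lower and the 9 class II genes 2 and 2. EPRS1, which joins an enzyme of each class in 1 protein, was not counted in either. No difference between these subgroups was tested.

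Of the 16 mitochondrial synthetases 0 were called higher and 4 lower, where 14.4% and 19.1% of all tested genes were. GARS1 and KARS1, which also serve mitochondria, are not among these 16. PARS2, the mitochondrial prolyl-tRNA synthetase and the lowest of all members in level per kilobase of canonical transcript, was at 6.70 and 7.79 CPM in control and at 1.78, 1.47 and 1.72 CPM in acidosis. That is a log2 fold change of -2.12 ± 0.22 (adjusted p = 1.6e-05), the most negative of the 38, and rests on 16 to 222 counts per library. PARS2 lies at chr1:54756898-54764523.

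AARS2, the mitochondrial alanyl-tRNA synthetase, was at 56.16 and 57.78 CPM in control and at 19.83, 15.98 and 22.18 CPM in acidosis. Its log2 fold change was -1.56 ± 0.13 (adjusted p = 3.7e-06). The change had the opposite sign to that of AARS1, the cytosolic enzyme for the same amino acid. AARS2 lies at chr6:44298731-44313347.

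IARS2, for isoleucine, had the highest level per kilobase of the mitochondrial synthetases in control, with either transcript length used below, and the smallest standard error of the genes called lower. It was at 251.7 and 250.3 CPM in control and at 84.92, 86.76 and 90.11 CPM in acidosis, a log2 fold change of -1.52 ± 0.06 (adjusted p = 4.8e-08). The gene lies at chr1:220094132-220148041. FARS2, the single-chain mitochondrial phenylalanyl-tRNA synthetase, was at 9.73 and 9.34 CPM in control and at 3.50, 3.21 and 3.44 CPM in acidosis. Its log2 fold change was -1.49 ± 0.17 (adjusted p = 4.3e-05). These 4 mitochondrial genes kept their call with total-count scaling. FARS2, at chr6:5261044-5829192, was thus lower together with both subunits of its cytosolic counterpart.

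CARS2 (-0.79 ± 0.15), TARS2 (-0.56 ± 0.09) and MARS2 (-0.51 ± 0.13) passed as lower within the fold limit. WARS2 (0.61 ± 0.12), SARS2 (0.44 ± 0.18) and EARS2 (0.42 ± 0.12) passed as higher. With total-count scaling WARS2 was at 0.04 and SARS2 and EARS2 turned to -0.14 and -0.16. SARS2 rested on an adjusted p of 0.0497 with groups that overlapped, and its pass was lost with the replicate block (adjusted p = 0.13), without the filter (0.061), with the 2 groups alone (0.074) and without any one sample other than acidosis replicate 2 (0.073 to 0.27). EARS2 lost its pass without control replicate 1 (adjusted p = 0.084). EARS2 shares 1242 bases with GGA2 on the same strand.

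The smallest mitochondrial changes were those of RARS2 and VARS2. RARS2 (arginine) was at 84.84 and 70.59 CPM in control and at 76.43, 77.76 and 83.06 CPM in acidosis (0.02 ± 0.10, adjusted p = 0.83; -0.55 with total-count scaling). VARS2 (valine) was at 53.86 and 59.92 CPM in control and at 61.70, 51.51 and 45.92 CPM in acidosis (-0.10 ± 0.13, adjusted p = 0.52). Both genes had overlapping groups, while their cytosolic counterparts RARS1 and VARS1 were called in opposite directions. HARS2, LARS2, YARS2 and NARS2 did not pass either, although NARS2 (-0.31, adjusted p = 0.054) passed with the replicate block (0.0495), without the filter and without acidosis replicate 3 (0.028), and HARS2 without acidosis replicate 3. The median of the 16 mitochondrial genes was -0.21, and 3 passed as higher, 7 as lower and 6 did not pass.

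The scaffold proteins of the multi-synthetase complex differed from each other. AIMP1 was at 51.55 and 49.04 CPM in control and at 75.60, 65.92 and 72.57 CPM in acidosis, a log2 fold change of 0.51 ± 0.09 (adjusted p = 0.00082) that became -0.07 with total-count scaling. AIMP2, a core scaffold that binds KARS1, was at 50.47 and 56.34 CPM in control and at 31.53, 26.63 and 30.70 CPM in acidosis (-0.85 ± 0.11, adjusted p = 9.1e-05). EEF1E1 was at 45.64 and 43.00 CPM in control and at 44.84, 41.59 and 42.05 CPM in acidosis (-0.05 ± 0.09, adjusted p = 0.67). AIMP1 thus lay above and AIMP2 below their control samples, with EEF1E1 overlapping. AIMP2 shares 1588 bases with EIF2AK1 on the opposite strand.

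Comparing the enzymes for 1 amino acid within a library removes the scaling between libraries. The log2 ratio of cytosolic to mitochondrial counts per kilobase of canonical transcript was taken for 17 pairs in each sample. All acidosis samples lay above the control samples in 11 pairs and below them in 6, with a median shift of 0.58. Of single genes 76.5% separated the groups by CPM, which is not a matching share, and none was computed for ratios of other gene pairs. EPRS1 and FARS2 each enter 2 pairs. The shift does not depend on which annotated length is used, because the same length served all samples, but the ratio itself does. Isoform lengths that differ between groups were not accounted for, and their part in the shift was not tested. Ratios with merged exon lengths are given where they change an order. Against all 4 samples at pH 7.4 together, 9 pairs were higher, 6 lower and 2 overlapped (CARS1 with CARS2 and SARS1 with SARS2). With 3 samples against 2 no exact permutation test of a single ratio can reach 0.05, and none was run.

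**Figure D3:**
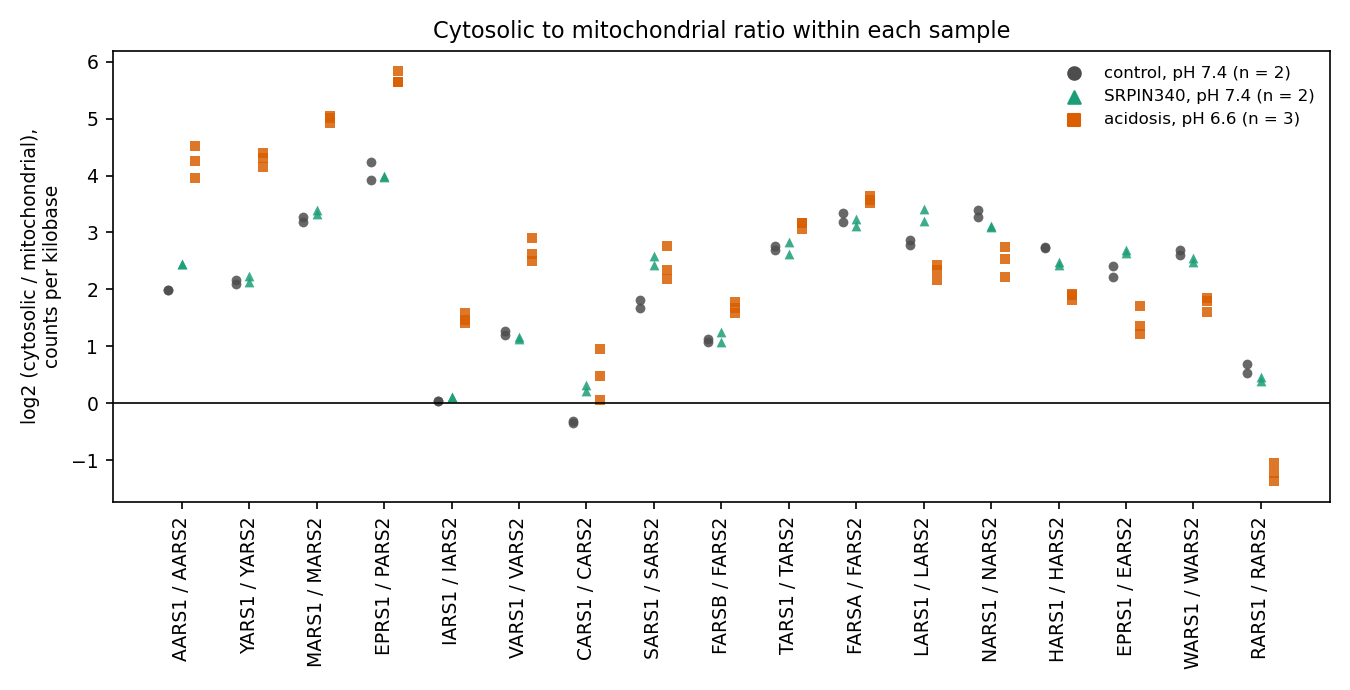
Log2 ratio of the cytosolic to the mitochondrial synthetase mRNA for 17 pairs in each sample, in counts per kilobase of canonical transcript, ordered by the shift in acidosis. The line at 0 marks equal levels. The ratio of AARS1 to AARS2 moves from 1.98 in both control samples to 3.96 to 4.53 in acidosis, and the ratio of RARS1 to RARS2 falls from 0.53 and 0.68 to between -1.37 and -1.04. Merged exon lengths would move each pair up or down by a constant.

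The largest upward shifts were those of the alanine and tyrosine enzymes. AARS1 exceeded AARS2 by 1.98 and 1.98 on the log2 scale in control and by 4.26, 4.53 and 3.96 in acidosis, so that a 3.95-fold excess became 19.0-fold (with merged exon lengths, log2 ratios of 0.53 and 2.80). YARS1 exceeded YARS2 by 2.09 and 2.17 in control and by 4.40, 4.14 and 4.30 in acidosis. In the first pair the cytosolic gene was higher and the mitochondrial gene lower, and in the second the cytosolic gene alone had passed the test.

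MARS1 over MARS2 went from 9.39-fold to 31.8-fold, and EPRS1 over PARS2 from 16.9-fold to 52.3-fold. The log2 ratios of IARS1 to IARS2 were 0.04 and 0.03 in control and 1.46, 1.58 and 1.41 in acidosis, whereas merged exon lengths put IARS2 above IARS1 in both groups (means of -2.06 and -0.61). That shift came with a called change of IARS2, while IARS1 did not pass. VARS1 over VARS2 went from 2.35-fold to 6.37-fold.

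The arginine pair moved the other way. The log2 ratios of RARS1 to RARS2 were 0.53 and 0.68 in control and -1.37, -1.04 and -1.23 in acidosis. With merged exon lengths the means were 2.90 and 1.07, so that RARS1 stayed above RARS2 and which gene was the higher one in acidosis is uncertain. The pairs for tryptophan, histidine, asparagine and leucine and the pair of EPRS1 with EARS2 also shifted towards the mitochondrial gene, by factors between 1.43 for leucine and 1.87 for tryptophan. EPRS1 therefore gained on PARS2 and lost against EARS2 within the same libraries. With merged exon lengths the mean log2 ratio of HARS1 to HARS2 was 0.47 in control and -0.39 in acidosis, and that of CARS1 to CARS2, below 0 in control with canonical lengths, was 0.30 and 1.12. HARS1 and HARS2 lie head to head and share 108 bases on opposite strands. HARS2 also shares 626 bases with ZMAT2 on the same strand, and HARS1 shares 1090 bases with WDR55 on the opposite strand.

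Summed over the class, the ratio of cytosolic to mitochondrial synthetase counts was 4.06 and 4.01 in control, 4.31 and 4.38 with SRPIN340, and 7.13, 7.15 and 7.09 in acidosis. The acidosis samples lay above all others, by more than the spread within any group. The cytosolic sum was 3140 to 3149 CPM in control and 4024 to 4071 CPM in acidosis after TMM scaling, but as a share of total counts it went from 0.369% to 0.371% down to 0.315% to 0.325%. The mitochondrial sum was lower on both scales, at 777 to 784 CPM against 567 to 571 CPM, and at 0.0910% to 0.0926% against 0.0444% to 0.0455% of total counts. Sums weigh abundant genes most, and IARS2 alone held about 251 CPM of the mitochondrial sum in control. GARS1 and KARS1 serve both compartments but are in the cytosolic sum only. Their mean levels were 179.9 and 148.7 CPM in control and 403.1 and 283.1 CPM in acidosis. The ratio and the mitochondrial sum depend on that assignment, and sums with both genes counted as mitochondrial were not computed.

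Per kilobase of canonical transcript, cytosolic synthetases were expressed at higher levels than mitochondrial ones in control, with medians of 54.4 and 11.1 CPM per kilobase. These levels assume counts that grow with transcript length, which depends on the tximport option, not given in the sources used here. TARS1 led at 119 CPM per kilobase, followed by NARS1 at 89.8 ± 5.3 (SD, n = 2). KARS1, GARS1 and IARS1 came next at 74.7, 73.8 and 72.9 CPM per kilobase, neighbours that differed by no more than the spread between samples. IARS2 followed in the sixth place, at 71.1, and was the highest mitochondrial gene. With merged exon lengths TARS1 still led (74.5), followed by IARS2 (60.7) and NARS1 (60.6), and GARS1 came to 10.4.

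The order changed in acidosis. YARS1 went from the 10th place at 55.2 ± 1.7 (SD, n = 2) to the first at 229 ± 6.6 CPM per kilobase (SD, n = 3), followed by GARS1 at 165 ± 4.4, KARS1 at 142 ± 3.4, SARS1 at 133 ± 3.2 and MARS1 at 116 ± 11. NARS1 went from the second place to the 13th, at 40.3 ± 3.0. PARS2 was last in both groups, at 3.08 and 0.703 CPM per kilobase. Transcript length is taken from the annotation and not from the isoforms present, and the places depend on it. With merged exon lengths YARS1 went from place 17 (13.8) to place 5 (57.2), behind KARS1 (69.9), TARS1 (66.9), SARS1 (66.2) and VARS1 (65.6). GARS1 then reached 23.2. PARS2 was the last in neither group with these lengths, although in acidosis it (0.703) and FARS2 (0.700) were nearly level.

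**Figure D4:**
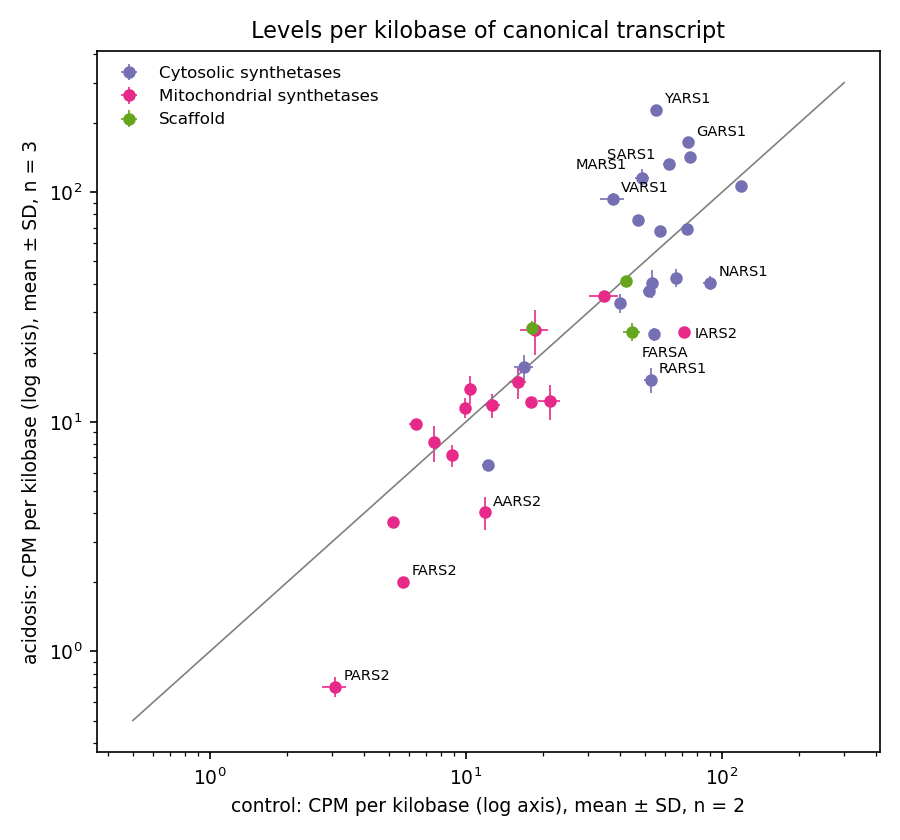
Level per kilobase of canonical transcript in control (horizontal, mean ± SD, n = 2) and acidosis (vertical, mean ± SD, n = 3), in CPM per kilobase on log axes, with cytosolic, mitochondrial and scaffold genes in 3 colours. Names mark the 12 genes called in acidosis, and the line marks equal levels. YARS1 lies highest above the line and PARS2 sits lowest in both groups, at 3.08 and 0.703 CPM per kilobase.

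With SRPIN340 the log2 fold changes of the synthetase mRNAs lay between -0.53 and 0.31. Of the 38 genes 0 passed the test in edgeR, and 10 had an unadjusted p under 0.05 there, as did 17.6% of all genes. In DESeq2 0 were called, but that count includes the fold limit, and passes without it were not counted. Among all genes, 0.128% were called higher, 0.195% lower and 2.3% passed without the fold limit. The samples of the groups did not overlap for 29 of 38 members, against 54.1% of all genes, so that a small separation without a call was common. AARS1 had the smallest adjusted p (0.065), with 204.7 and 195.0 CPM against 158.9 and 163.7 CPM in control and a log2 fold change of 0.31 ± 0.07. SARS2 had the largest change, with 26.24 and 23.61 CPM against 32.71 and 39.04 CPM in control (-0.53 ± 0.19, adjusted p = 0.19).

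Genes called in acidosis did not pass the test with the inhibitor. PARS2 was at 7.81 and 8.12 CPM (0.14 ± 0.21, adjusted p = 0.80) and AARS2 at 52.52 and 50.11 CPM (-0.15 ± 0.13, adjusted p = 0.63). YARS1 was at 150.9 and 146.6 CPM (0.14 ± 0.07, adjusted p = 0.30). RARS1 was at 101.4 and 100.6 CPM (-0.15 ± 0.11, adjusted p = 0.56). IARS2 was at 244.4 and 247.4 CPM (-0.03 ± 0.07, adjusted p = 0.87). The differences between the 2 effects are, by construction, those of acidosis against SRPIN340.

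Acidosis against SRPIN340, which shares its acidosis samples with the comparison above, had 4 members called higher and 6 lower, where 14.9% and 19.7% of all genes were. Higher were YARS1 (1.91 ± 0.06), VARS1 (1.496 ± 0.087), MARS1 (1.19 ± 0.09) and KARS1 (1.02 ± 0.06). Lower were PARS2 (-2.25 ± 0.21), RARS1 (-1.65 ± 0.11), IARS2 (-1.495 ± 0.062), AARS2 (-1.41 ± 0.13), FARS2 (-1.31 ± 0.18) and NARS1 (-1.15 ± 0.08). KARS1, at 140.1 and 138.8 CPM with SRPIN340, passed the fold limit here and not against control, but was at 0.99 without the filter. GARS1 was called as well with RLE size factors and in DESeq2, at 1.01 in each. GARS1 (0.97 ± 0.06), SARS1 (0.86 ± 0.07) and FARSA (-0.90 ± 0.09) passed the test within the fold limit. The samples did not overlap for 32 of 38 members, against 78.3% of all genes.

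Other genes of the same biology were read from lists, to place the synthetases beside their regulators and partners. Of 31 genes of the ATF4 programme, 12 were called higher and 6 lower in acidosis (median 0.46), which became 9 and 8 (median -0.12) with total-count scaling. ATF4 itself was at 328.9 and 387.4 CPM in control and at 1511, 1471 and 1572 CPM in acidosis, a log2 fold change of 2.08 ± 0.08 (adjusted p = 3.5e-08). ASNS, the asparagine synthetase, was at 65.89 and 75.65 CPM in control and at 302.4, 322.6 and 285.0 CPM in acidosis (2.10 ± 0.09, adjusted p = 6.5e-08). The called changes were greatest for ATF3 (5.62 ± 0.16), PPP1R15A (5.57 ± 0.08), which directs the phosphatase of eIF2α, and SLC3A2 (2.61 ± 0.11), a subunit of amino acid transporters.

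The programme was not uniform. DDIT3, the stress factor CHOP, was at 14.84 and 15.31 CPM in control and at 23.22, 21.67 and 21.58 CPM in acidosis (0.56 ± 0.12, adjusted p = 0.0023), within the fold limit and at -0.02 with total-count scaling. TRIB3, a pseudokinase induced by ATF4 and CHOP, fell from 25.58 and 32.05 CPM to 9.21, 12.21 and 8.08 CPM (-1.56 ± 0.17, adjusted p = 3.0e-05). Both directions thus occurred among its targets, as they did among the synthetases. With SRPIN340, ASNS was the 1 gene of the 31 that passed the test, at 112.7 and 118.8 CPM (0.71 ± 0.09, adjusted p = 0.0079). The log2 fold changes of 28 of the 31 were above 0 (median 0.25), and 18 had an unadjusted p under 0.05, against 17.6% of all genes. The list of eIF2α kinases has 5 genes and includes GCN1, which is not itself such a kinase. Of the 5, EIF2AK3 (PERK) was called higher in acidosis (1.73 ± 0.09) and 0 were called lower, or 1 and 1 with total-count scaling. By adjusted p alone 3 passed as higher and 2 as lower. EIF2AK4 (GCN2) was at 0.42 ± 0.09 (adjusted p = 0.0017), and at -0.15 with total-count scaling. GCN1 and EIF2AK4 are named after their values were seen.

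**Figure D5:**
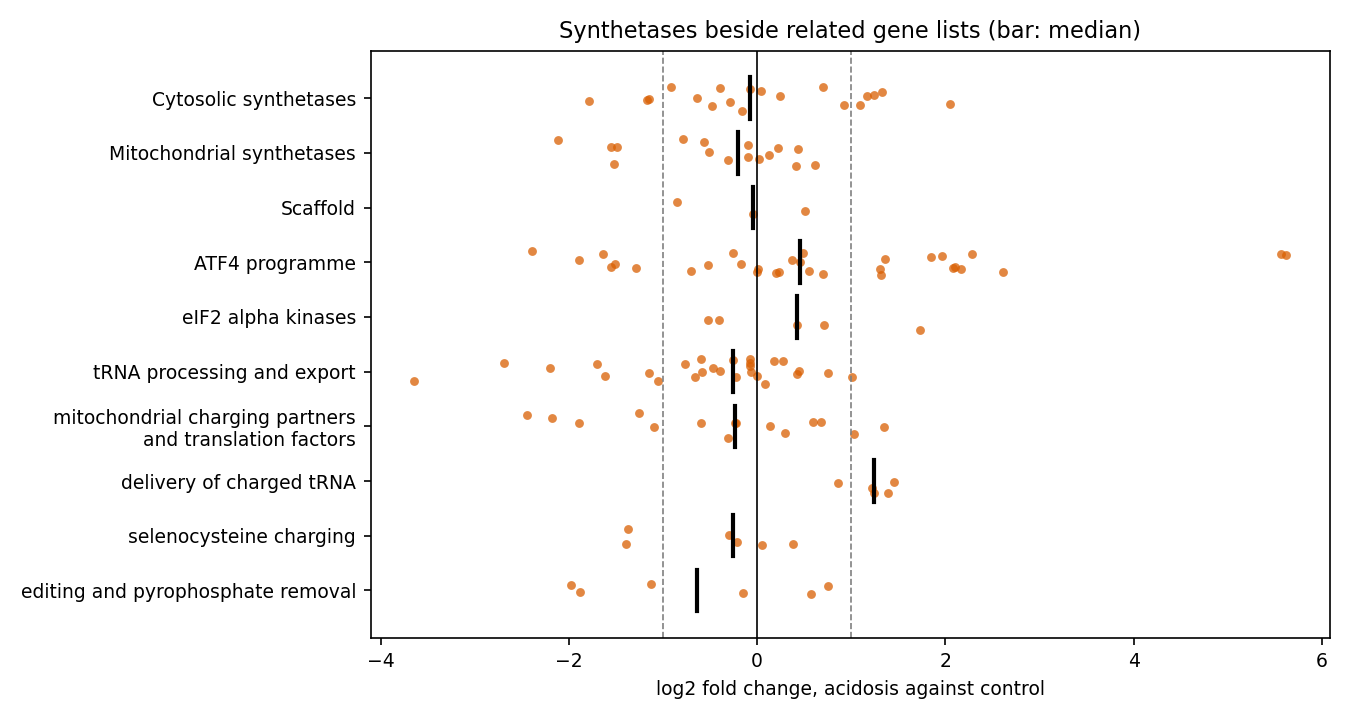
Log2 fold change in acidosis against control for the 3 classes of members and 7 related lists, 1 point per gene, with the median of each as a bar and the fold limit of 1 as dashed lines. The cytosolic and mitochondrial synthetases have medians of -0.08 and -0.21 with members on both sides, and the 5 genes that deliver charged tRNA have a median of 1.24 with all 5 above 0.

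Other lists covered the steps before and after charging. Their counts of calls stand beside 14.4% higher and 19.1% lower among all tested genes. Of 27 genes for tRNA processing and export, 1 was called higher and 7 lower (median -0.26), or 0 and 12 with total-count scaling. The largest of these changes were those of RPP25 (-3.64 ± 0.31) and POP1 (-2.69 ± 0.59), subunits of RNase P or its relative RNase MRP, and of ELAC1 (-2.20 ± 0.21), an endonuclease for tRNA 3′ ends. RPP25 was at 0.594, 0.643 and 0.258 CPM in acidosis, with as few as 3 counts in a library. POP1 was at 0.772, 1.01 and 6.36 CPM in acidosis, a wide spread. The gene called higher, RPP38 (1.01 ± 0.11), is named after its value was seen. Of the 5 genes that deliver charged tRNA to the cytosolic ribosome or recycle that factor, 4 were called higher (EEF1A1 at 1.46 ± 0.05, EEF1A2 at 1.39 ± 0.08, EEF1G at 1.24 ± 0.06 and EEF1D at 1.22 ± 0.11) and 0 lower. With total-count scaling all 5 stayed above 0 (median 0.67) and 0 were called. EEF1A1 was at 8775 and 8988 CPM in control and at 24460, 23430 and 25160 CPM in acidosis. It carries charged tRNA to the ribosome.

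Among 15 mitochondrial charging partners and translation factors, 2 were called higher and 5 lower (median -0.24), or 0 and 6 with total-count scaling. The shares over all tested genes were 14.4% and 19.1% with TMM scaling. MRPL58 (-2.45 ± 0.16), a peptidyl-tRNA hydrolase of the mitochondrial ribosome, TSFM (-2.18 ± 0.13), the exchange factor for the mitochondrial EF-Tu, and MTIF2 (-1.90 ± 0.10), an initiation factor, fell most. EF-Tu itself, TUFM, rose by 1.35 ± 0.08. GATB and GATC, 2 subunits of the amidotransferase that makes mitochondrial glutaminyl-tRNA, went in opposite directions (-1.10 ± 0.17 and 1.03 ± 0.08), and MTFMT, which formylates the initiator methionyl-tRNA, fell (-1.25 ± 0.14). TUFM, GATB, GATC and MTFMT are named after their values were seen.

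Of 6 genes for selenocysteine charging, 0 were called higher and 2 lower, SEPHS2 (-1.39 ± 0.07), which makes the selenium donor, and EEFSEC (-1.38 ± 0.16), the elongation factor for selenocysteine. SARS1, which starts that pathway by charging its tRNA with serine, was called higher. Of 6 genes for editing of mischarged tRNA and removal of pyrophosphate, 0 were called higher and 3 lower. These were ANKRD16 (-1.98 ± 0.21), a partner of AARS1 in editing, and the deacylases DTD2 (-1.88 ± 0.17) and DTD1 (-1.12 ± 0.12). Among all tested genes 14.4% were called higher and 19.1% lower, and neither of these short lists was tested against that.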

How the data were processed

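RNA-seq of 7 HEK-293 samples was analysed. Per the labels and the study's methods, the authors trimmed reads with Trimmomatic 0.39 and Trim Galore 0.6.6, quantified transcripts with Salmon 1.5.1 and deposited estimated counts per gene made with tximport. The tximport option is not given in the sources used here. These counts are not normalized between samples.

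Values were rounded to integers, and edgeR 4.0.16 (R 4.3.3, quasi-likelihood test, TMM, filterByExpr) was run in 1 fit of all 7 samples. Adjusted p-values are Benjamini-Hochberg values over 14863 genes. Calls required an adjusted p under 0.05 together with a log2 fold change above 1 in size. Each SE is that size divided by the square root of the F statistic. DESeq2 1.42.0, other scalings, no filter, 2 groups only, a replicate block and leaving out each sample were alternatives. The procedure was tested on simulated data with few changed genes, balanced between up and down and beyond the fold limit. That setting tests neither the scaling when many genes move nor calls near the fold limit. Genes were matched to GENCODE by identifier (19977 of 19978). Python 3.11.15 and matplotlib 3.10.9 were used for tables and figures.

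Values in every sample are given for members called in any comparison and, in each class, for the 3 largest and 2 smallest changes in acidosis. From the related lists, ATF4, DDIT3, ASNS, TRIB3 and up to 3 called genes with the largest change are named. The members and lists were chosen with earlier results of these data known. All replicate pairs differed by more than sampling noise.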

Additional observations from a re-analysis of the deposited data

How the results depend on the processing

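The 12 calls in acidosis against control were kept, with 0 added, in DESeq2, with RLE size factors, without the filter, with the 2 groups alone and without each sample in turn. With total-count scaling 8 were kept and 7 added: against control 1 cytosolic gene was called higher and 6 lower, 7 mitochondrial genes were called lower and 1 scaffold gene was called, and against SRPIN340 these counts were 1, 7, 8 and 1. The cytosolic and mitochondrial medians then became -0.65 and -0.78, and CARS1 (-0.53), QARS1 (-0.33), EARS2 (-0.16), HARS2 (-0.35), LARS2 (-0.45), RARS2 (-0.55), SARS2 (-0.14) and AIMP1 (-0.069) turned negative. By adjusted p alone, 8 cytosolic genes were higher and 9 lower, 3 mitochondrial higher and 7 lower and 2 scaffold genes passed against control, and 8, 7, 4, 8 and 2 against SRPIN340. Leaving out a sample gave 0 to 1 mitochondrial genes higher against SRPIN340, the 1 being SARS2 without SRPIN340 replicate 1 or acidosis replicate 2. The 4 cytosolic genes called higher there were 5 with RLE size factors and in DESeq2 (GARS1 added) and 3 without the filter (KARS1 lost). With single samples left out, CARS1 ran from -0.051 (without control replicate 1; -0.048 without acidosis replicate 1) to 0.14. RARS2 ran from -0.12 (without control replicate 2; -0.0092 without acidosis replicate 3) to 0.16, and turned to -0.0041 without the filter and -0.00064 with 2 groups only. Merged exon lengths gave median control levels of 19.4 (cytosolic) and 5.89 (mitochondrial) CPM per kilobase.

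Control, acidosis and SRPIN340 samples share replicate numbers. The deviations of replicate 1 from its group showed little correlation between groups (r = 0.0051 for control with SRPIN340, -0.101 for acidosis with control, 0.0604 for acidosis with SRPIN340). These values cannot decide whether samples with the same number were handled together, which is not given in the sources used here. With the replicate block, 5 cytosolic genes were called higher and 3 lower, 0 mitochondrial genes higher and 4 lower, and all 12 calls were kept. By adjusted p alone the block lost QARS1 (0.10), TARS1 (0.12) and SARS2 (0.13) and gained NARS2 (0.0495). RARS2 turned to -0.0079. Genes at low counts, such as PARS2, limit the precision most in the shallower acidosis libraries.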
